A study of Mus musculus with 10 samples.

Results

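The genes described here are 10 of those that make, load or control classical major histocompatibility complex (MHC) class I molecules in the mouse. They are the heavy chain genes H2-K1 and H2-D1, the light chain gene B2m and the peptide loading genes Tap1, Tap2 and Tapbp. With them are the immunoproteasome genes Psmb8, Psmb9 and Psmb10 and the transactivator gene Nlrc5. The 10 genes were picked by name from the 21936 genes of the deposited table, and all 10 were found there. All 10 also passed the filter on low counts that left 14595 genes for testing.

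Class I molecules stand on the surface of most nucleated cells and show peptides from proteins made inside the cell to CD8+ T cells. The proteasome cuts the peptides, and interferon-induced cells swap 3 of its catalytic subunits for the inducible ones of the immunoproteasome. The transporter made of TAP1 and TAP2 carries the peptides into the endoplasmic reticulum, tapasin holds the empty class I molecule at the transporter, and the heavy chain leaves for the surface with a peptide and beta-2-microglobulin. Healthy neurons and glia carry little class I, and inflammation of the nervous system, with its interferons, raises these genes in microglia, endothelium and other cells.

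RNA of mouse spinal cord was sequenced at day 14 in 2 groups of 5 samples, named Nar and EAE after their titles. EAE is experimental autoimmune encephalomyelitis, an immune attack on the myelin of brain and cord that serves as a mouse model of multiple sclerosis. Nar is read here as EAE mice given naringenin, a citrus flavonoid, but the titles do not say that these mice had EAE. The labels give genotype WT for all samples and no strain, age, dose or route, and their treatment field names naringenin for all 10, so the labels leave unclear what was given to the EAE samples. Whether each sample of a group came from its own animal is not in the labels. The p-values below therefore cover only the variation from sample to sample, which may be technical.

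Total counts were 14504726 to 15139706 reads in Nar and 16658798 to 18961501 in EAE, and mitochondrially encoded genes held 6.69% to 7.51% of the reads in Nar and 4.62% to 7.01% in EAE. Depth did not overlap between the groups, so that a difference in preparation and the treatment cannot be told apart. Neuron, oligodendrocyte and astrocyte markers and posterior Hox genes were present in every sample, as the label spinal cord requires, except that Hoxd10 had no read in some samples. Sample Nar 4 stood apart from the other Nar samples: the summed level of 10 general leukocyte markers, with none at 0, was 423 counts per M reads (CPM) in Nar 4. In Nar 1, 2, 3 and 5 this sum was 132 to 163 CPM, and over the EAE samples it was 319 to 434. For this reason the results on the 10 genes are given with and without Nar 4. Samples were picked out in this way after their values were seen, and leaving out the highest Nar sample of a gene that is lower in Nar widens its difference by construction.

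Promoters of 8 of the 10 genes were in the RefSeq sequences of build GRCm38.p6, as windows of 300 bases. Each runs from 250 bases before a RefSeq transcript start to 50 after it. Such a start can lie within the gene interval given below, and the windows of H2-D1, Tapbp and Psmb8 lie wholly inside theirs. Stretches from the windows of 3 genes are shown, H2-K1 and B2m because their levels kept close together over the samples and Psmb10 because its levels did not follow theirs. Counted from the RefSeq start, they run from −200 to −1 for H2-K1 and B2m. For Psmb10 the stretch runs from −250 to −53, up to the edge of its gene interval. The capitals mark motifs searched on both strands. The motifs were the NF-kB site of class I genes (GGGGATT, any base, CCC), a short interferon element (AGTTTC, any 2 bases, TT), a repeat interferon element (GAAA, any 2 bases, GAAA), the STAT site (TTC, any 3 bases, GAA), CCAAT and TGACG (part of the CRE). None of them overlaps another in the stretches shown.
H2-K1, chr17:34000348-34000547, minus strand: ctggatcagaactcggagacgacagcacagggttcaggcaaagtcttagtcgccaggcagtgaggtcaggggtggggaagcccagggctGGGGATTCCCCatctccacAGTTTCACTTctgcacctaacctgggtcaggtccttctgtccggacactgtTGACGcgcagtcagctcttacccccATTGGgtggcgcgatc
B2m, chr2:122147487-122147686, plus strand: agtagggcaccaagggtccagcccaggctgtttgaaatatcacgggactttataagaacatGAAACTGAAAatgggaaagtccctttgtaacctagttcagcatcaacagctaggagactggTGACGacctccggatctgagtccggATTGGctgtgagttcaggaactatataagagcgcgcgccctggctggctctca
Psmb10, chr8:105938445-105938642, minus strand: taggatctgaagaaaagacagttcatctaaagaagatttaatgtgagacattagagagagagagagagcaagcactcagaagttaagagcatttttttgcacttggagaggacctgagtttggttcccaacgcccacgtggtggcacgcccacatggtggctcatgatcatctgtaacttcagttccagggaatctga

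The heavy chain genes carry the NF-kB site and the interferon element side by side, and the 30 bases that hold both are shown because the 2 genes are compared below.
H2-K1, chr17:34000429-34000458, minus strand: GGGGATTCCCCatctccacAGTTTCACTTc
H2-D1, chr17:35262923-35262952, plus strand: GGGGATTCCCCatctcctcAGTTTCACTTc
They differ at 1 of 30 bases, A18T counted from the 5′ end with H2-K1 first, and over 240 bases lined up on this site the 2 windows were 73.3% identical. Of 32851 RefSeq promoter windows of this length, 0.0761% held the NF-kB motif and 1.72% the short interferon motif, and among the 8 genes with a window H2-K1 and H2-D1 held each. The repeat form was in 3.44% of windows and here in B2m, the STAT motif in 8.30% and here in Psmb8, TGACG in 20.8% and CCAAT in 37.4%. The window of Psmb10 held none of the 6 motifs, which says only that these letters are not in it. The windows of Tap1, Tapbp and Psmb9 also held no NF-kB, interferon or STAT motif. A match of letters is a description and does not show that a factor binds.

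In the GRCm38 coordinates of the files, 7 of the 10 genes lie on chromosome 17, in the MHC. Tapbp spans chr17:33915899-33929292, H2-K1 chr17:33996017-34000347 and H2-D1 chr17:35262730-35267499. Between these heavy chain genes, Psmb9 (chr17:34181987-34187764), Tap1 (chr17:34187553-34197225), Psmb8 (chr17:34197721-34201454) and Tap2 (chr17:34203527-34216321) follow each other with no other gene of the table in their 34.3 kb. Psmb9 and Tap1 run in opposite directions from a shared start, and their RefSeq promoter windows share 275 of 300 bases. B2m lies at chr2:122147686-122153083, and Nlrc5 (chr8:94434356-94527272) and Psmb10 (chr8:105935735-105938444) lie on chromosome 8. Each interval is the whole gene with its exons and introns.

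The level of these genes spanned a wide range. In fragments per kilobase and M reads (FPKM, the unit that allows genes to be compared), B2m had 668 ± 110 in EAE (SD, n = 5), H2-D1 196 ± 42.1 and H2-K1 88.2 ± 20.4. The immunoproteasome gene Psmb10 (21.7 ± 3.35) and the tapasin gene Tapbp (17.2 ± 1.41) came next. The rest had a mean FPKM of 4.63 (Tap1), 3.38 (Tap2), 2.60 (Psmb9), 2.25 (Nlrc5) and 1.46 (Psmb8). The order of the means was the same in Nar, from 382 ± 200 for B2m to 1.18 ± 0.862 for Psmb8. Psmb10 and Tapbp lay within the reach of their SDs in EAE, as did each neighbouring pair from Tap1 down to Psmb8, whereas Tapbp was well above Tap1. Psmb8 rested on the fewest reads, 26 to 135 per sample, against 2696 to 12427 for B2m.

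The classical heavy and light chain genes had the lowest fold changes of the set and were below every EAE sample in 4 of the 5 Nar samples, but did not pass the test over all genes. H2-D1, which codes for the D heavy chain, had 191, 206, 283, 426 and 144 CPM in Nar 1 to 5 and 512, 446, 372, 623 and 543 CPM in EAE 1 to 5. Nar 1, 2, 3 and 5 were below every EAE sample, and Nar 4 lay between EAE 3 and EAE 2. The log2 fold change of H2-D1, coded Nar minus EAE, was −0.998 (SE 0.284, edgeR quasi-likelihood adjusted p = 0.0865, Benjamini-Hochberg over all tested genes), the lowest of the 10. H2-D1 passed with the DESeq2 Wald test (adjusted p = 0.0200) and with limma-voom (adjusted p = 0.0460), but not with the share of mitochondrial reads as a covariate in edgeR, where its fold change was −0.64 (adjusted p = 0.517).

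H2-K1, which codes for the K heavy chain, had 126, 142, 186, 290 and 84.7 CPM in Nar 1 to 5 and 261, 230, 188, 331 and 269 CPM in EAE 1 to 5. Nar 3 was just under EAE 3, the lowest EAE sample, and Nar 4 was above 4 of the 5 EAE samples. The log2 fold change was −0.62 (SE 0.307, edgeR adjusted p = 0.264). For B2m, the light chain that every class I heavy chain needs, the samples Nar 1 to 5 had 233, 286, 330, 626 and 185 CPM and EAE 1 to 5 had 585, 529, 452, 661 and 609 CPM. Of the Nar samples, Nar 4 alone lay in the EAE range, and the log2 fold change of B2m was −0.77 (SE 0.305, edgeR adjusted p = 0.182). Without Nar 4, H2-D1 (−1.28, edgeR adjusted p = 0.00255), B2m (−1.13, 0.00117) and H2-K1 (−0.92, 0.0304) all fell. With the mitochondrial share as a covariate, over all 10 samples, the fold change was −0.24 for H2-K1 (edgeR adjusted p = 0.848) and −0.46 for B2m (0.688). Sequence is shared among class I genes: 12.8% of the 50-base windows of H2-D1 transcripts and 9.63% of those of H2-K1 also occur in transcripts of other genes, against 0% for B2m. The sources used here do not say how such reads were assigned, so the split between H2-K1 and H2-D1 is uncertain.

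**Figure D1:**
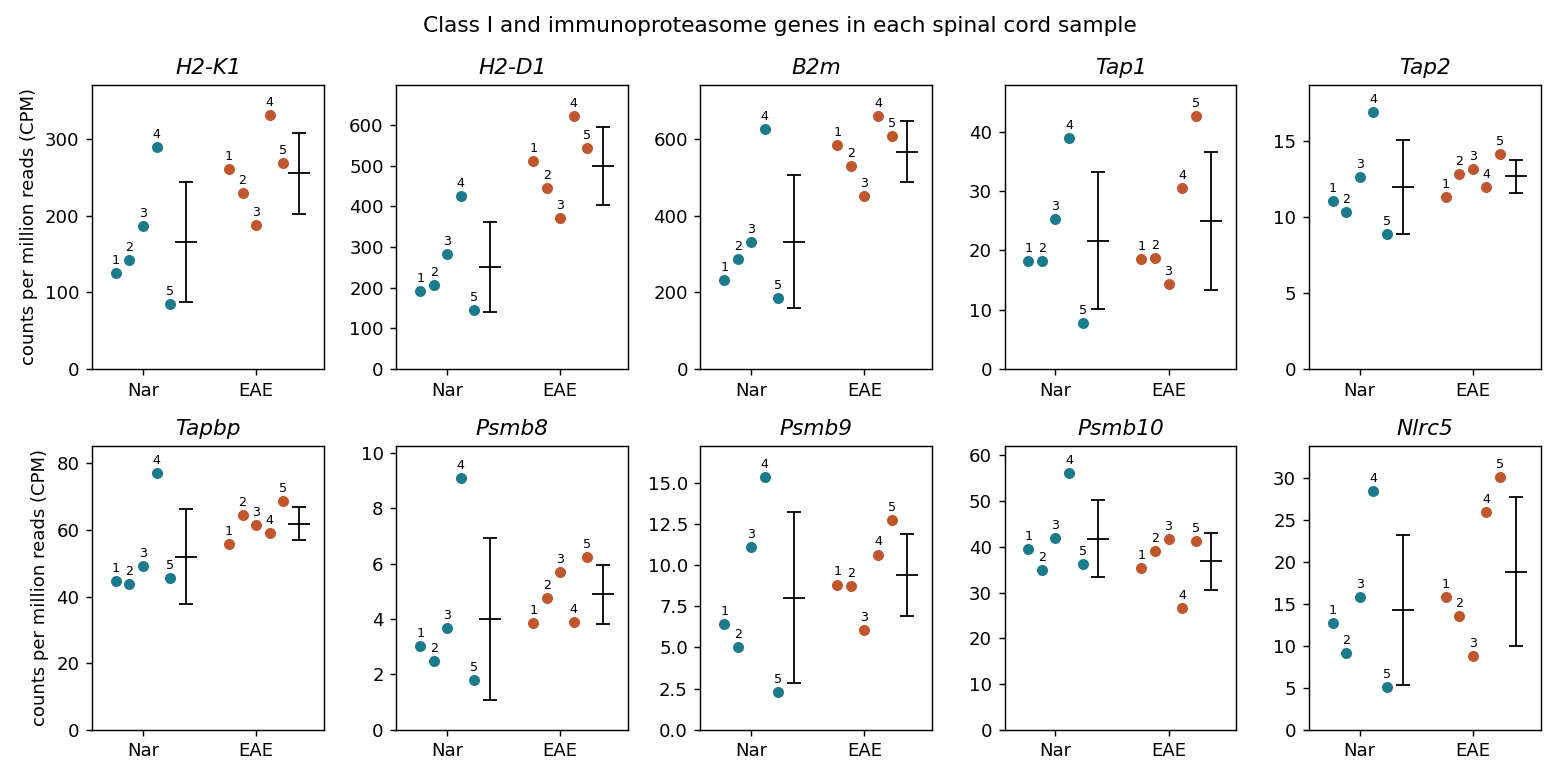
Level of each of the 10 genes in CPM (vertical axes from 0) in the Nar and EAE samples. Points are samples with their replicate number, and the bar beside each group is the mean with its SD (n = 5). For H2-K1, H2-D1, B2m, Tapbp and Psmb8, 4 of the 5 Nar samples are below every EAE sample, and Nar 4 is the highest Nar sample in all 10 genes.

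Over the whole set, edgeR called 0 of the 10 genes at an adjusted p below 0.05, where it called 3.93% of all tested genes (574 of 14595) and 2.36% as lower in Nar. At an unadjusted p below 0.05 it counted 2 of the 10, H2-D1 and B2m, both lower in Nar, where 22.5% of all tested genes passed and 11.6% did so as lower. DESeq2 and limma-voom called 1 gene each, H2-D1, and called 5.51% and 3.51% of all genes as lower in Nar. A negative log2 fold change was found for 9 of the 10 genes, against 46.6% of all tested genes. The median over the 10 was −0.27, beside 0.02 over all genes. With the share of mitochondrial reads as a covariate the fold changes of Tap1 (0.49), Psmb9 (0.10), Nlrc5 (0.51) and Psmb10 (−0.045) turned sign, and Tap1 also did so without EAE 5 (0.077). The groups overlapped in all 10 genes, where 5.79% of tested genes did not overlap and 3.12% did so as lower in Nar. Without Nar 4, edgeR called 5 of the 10, all lower (H2-K1, H2-D1, B2m, Tapbp and Psmb8), where it called 7.49% of all genes as lower. The median was then −0.71, beside 0.02 over all genes, and these 5 genes were those in which the remaining Nar samples lay below every EAE sample (8.7% of all tested genes).

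In bulk tissue, fewer cells of a type and less RNA of a gene per cell cannot be told apart. Summed CPM of 11 markers of infiltrating monocytes and macrophages were 19.9 to 37.2 in Nar 1, 2, 3 and 5, 139.9 in Nar 4 and 208 to 649 in EAE. Such a sum is set mostly by its most abundant genes. Of these 11, 2 fell by edgeR, Lyz2 and Ms4a7, where it called 2.36% of all tested genes as lower. Single log2 fold changes of the 11 ran from −4.64 to 0.37 (median −0.90). For 9 microglia markers the sums were 279.8 to 324 in Nar 1, 2, 3 and 5, 644 in Nar 4 and 540.2 to 630.3 in EAE. The 10 measured T cell markers of 13 listed summed to 2.47 to 4.94 CPM in the 4 samples, 14.0 in Nar 4 and 9.64 to 22.8 in EAE, with Cd3d, Cd3g and Cd2 at 0 in some samples. The 7 astrocyte markers summed to 5436 to 5691 CPM in Nar 1, 2, 3 and 5, 8114 in Nar 4 and 7487 to 8754 in EAE. The 8 markers of meningeal and perivascular fibroblasts summed to 111 to 118 CPM in the same 4 samples, 144 in Nar 4 and 173 to 198.3 in EAE. The 9 endothelial markers summed to 513 to 632 CPM in Nar and 457 to 521 in EAE. The part of each of these cell types in the class I values was not tested.

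The genes of peptide transport and loading differed less. Tapbp, which codes for tapasin, had 44.7, 43.9, 49.1, 77.1 and 45.5 CPM in Nar 1 to 5 and 55.9, 64.6, 61.5, 59.0 and 68.8 CPM in EAE 1 to 5. The other 4 Nar samples were close together below the EAE range, and Nar 4 was above it. The log2 fold change of Tapbp was −0.25 (SE 0.144, edgeR adjusted p = 0.321), and −0.44 without Nar 4 (adjusted p = 0.00152). Tap1, which codes for one chain of the peptide transporter, ranged from 7.75 CPM in Nar 5 to 42.6 in EAE 5. Its EAE samples split, with 14.4 to 18.7 CPM in EAE 1, 2 and 3 and 30.5 and 42.6 in EAE 4 and 5, and Nar 1 and Nar 2 (18.1 each) lay among the former. The fold change of Tap1 was within this spread (−0.20, SE 0.432, edgeR adjusted p = 0.816, and −0.52 with adjusted p = 0.460 without Nar 4). Tap2, the other chain, had 8.85 to 16.9 CPM in Nar and 11.3 to 14.1 in EAE (−0.08, SE 0.150, edgeR adjusted p = 0.775, and −0.24 with adjusted p = 0.230 without Nar 4). Part of the exons is shared with other genes for Tapbp (29.0% of exon bases, with Zbtb22 and a predicted gene) and Tap2 (18.5%), and the sources used here do not say how such reads were counted.

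The 3 immunoproteasome genes did not behave alike. Psmb8, which replaces the constitutive subunit gene Psmb5, had 3.04, 2.47, 3.67, 9.11 and 1.78 CPM in Nar 1 to 5 and 3.85, 4.77, 5.70, 3.88 and 6.26 CPM in EAE 1 to 5. Nar 4 was the highest of all samples, and the other Nar samples were the lowest. The log2 fold change of Psmb8 was −0.28 (SE 0.374, edgeR adjusted p = 0.690), and −0.83 without Nar 4 (adjusted p = 0.0359). Psmb9, which replaces Psmb6, ran from 2.26 CPM in Nar 5 to 15.3 in Nar 4, and Nar 3 (11.1) was above 4 of the 5 EAE samples, which had 6.05 to 12.7 CPM. Its fold change was −0.23 (SE 0.427, edgeR adjusted p = 0.791), and −0.60 without Nar 4 (adjusted p = 0.344). Exon bases shared with neighbours were 14.7% for Psmb8 and 5.79% for Psmb9, the latter with Tap1.

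Psmb10, which replaces Psmb7, was the 1 gene of the 10 with a positive fold change. It had 39.6, 35.0, 42.0, 56.1 and 36.2 CPM in Nar 1 to 5 and 35.3, 39.1, 41.8, 26.7 and 41.2 CPM in EAE 1 to 5. Nar 4 was the highest sample and EAE 4 the lowest, and the other 8 lay together. The log2 fold change was 0.18 (SE 0.145, edgeR adjusted p = 0.474), or 0.05 without Nar 4 (adjusted p = 0.816). EAE 4, the lowest sample for Psmb10, was the highest for H2-K1, H2-D1 and B2m. This low value was not particular to Psmb10. Of the other proteasome genes named below, EAE 4 was also lowest for Psmb4, Psmb5, Psmb6, Psmb7, Psma7, Psmd4, Psmg4 and Psme2. For Psmd1, Psmg3 and Psme1 another sample was lowest.

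Nlrc5, the transactivator that acts on class I promoters, had 12.6, 9.17, 15.8, 28.4 and 5.08 CPM in Nar 1 to 5 and 15.7, 13.6, 8.73, 25.9 and 30.04 CPM in EAE 1 to 5. Nar 4, EAE 4 and EAE 5 were high, Nar 5 was lowest and the groups overlapped broadly. The log2 fold change of Nlrc5 was −0.40 (SE 0.475, edgeR adjusted p = 0.653), or −0.81 without Nar 4 (adjusted p = 0.268).

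Across samples, the levels of the genes other than Psmb10 went together, though by rank less closely for some pairs. The rank correlation (Spearman's rho) was 0.988 for Tap1 and Nlrc5 but 0.564 for H2-D1 and Tap2, and it was 0.685 for Tap2 and Psmb10. Nar 5 was the lowest of all samples in 8 of the 10 genes, and Nar 4 was the highest of all in 5 and above the EAE mean in 9. As a description over 10 samples that share their library scaling, Pearson's r of log2 CPM was 0.635 to 0.982 for the 36 pairs without Psmb10 (median 0.797) and −0.0717 to 0.632 for the 9 pairs with it. After the group means were subtracted it was 0.637 to 0.994 for the 36 pairs and 0.303 to 0.839 for the pairs with Psmb10. H2-K1, H2-D1 and B2m kept together (r 0.967 to 0.982), as did Tap1 and Nlrc5 (0.966) and Tap2 and Psmb8 (0.978). Tap1 and Psmb9, which share a promoter region, had r 0.933.

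**Figure D2:**
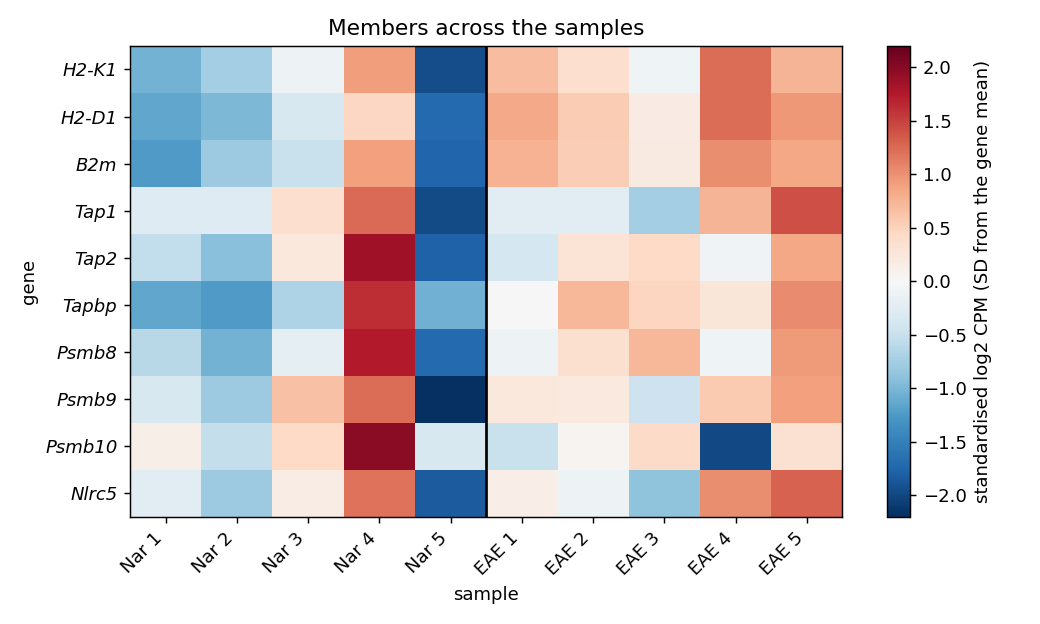
Log2 CPM of each gene (rows) in each sample (columns), standardised to the gene's own mean and SD over the 10 samples, with red above and blue below the mean. The line divides Nar from EAE. Nar 4 is red in all 10 rows, Nar 5 is blue in all 10, and Psmb10 departs from the other rows in EAE 4.

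The 8 genes with the pattern most like the mean of the 10 were Ly6e, H2-DMa, Slfn1, Eif2ak2, Ccr2, Cd36, Btg1 and Gbp6 (Pearson's r 0.944 to 0.969 over 10 samples, given as a description). Ly6e, a surface protein induced by interferon, came first at 108 to 160 CPM in Nar and 127 to 157 in EAE. Eif2ak2 codes for the interferon-induced kinase PKR, Gbp6 for an interferon-induced GTPase, H2-DMa for a chain of the class II peptide exchanger and Ccr2 for the chemokine receptor of inflammatory monocytes. None of the 8 passed the edgeR test (adjusted p 0.205 to 0.802). Since they were chosen for a pattern that is high in Nar 4, their values without that sample are not given as a result.

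The inducible and constitutive proteasome subunits were compared within each sample, as the ratio of the FPKM of an inducible gene to that of the gene it replaces. The ratio of Psmb8 to Psmb5 was 0.0351, 0.0296, 0.0343, 0.0819 and 0.0183 in Nar 1 to 5 and 0.0552, 0.0492, 0.0552, 0.0641 and 0.0992 in EAE 1 to 5. Apart from Nar 4 the Nar ratios were below every EAE ratio. The difference of mean log2 ratios was −0.83 (two-sided exact permutation p = 0.071, adjusted p = 0.214 over the 3 ratios), and −1.14 without Nar 4 (exact permutation p = 0.0079, adjusted p = 0.0238). Both genes enter this difference. Over all samples the edgeR log2 fold change was −0.28 for Psmb8 (adjusted p = 0.6905) and 0.30 for Psmb5 (adjusted p = 0.2645). Psmb9 stood at 0.0102 to 0.0646 of Psmb6 in Nar and 0.0263 to 0.0802 in EAE, with a difference of −0.77 (exact permutation p = 0.21, adjusted p = 0.310), or −1.05 without Nar 4 (exact permutation, adjusted p = 0.143). Psmb10 stood near parity with Psmb7, at 0.795 to 1.34 in Nar and 0.792 to 1.16 in EAE (difference 0.12, exact permutation p = 0.45, adjusted p = 0.452, and without Nar 4 a difference of 0.017 with adjusted p = 0.889). In this tissue the constitutive genes thus had FPKM values more than 10 times those of Psmb8 and Psmb9 in every sample, but not of Psmb10.

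The 2 heavy chain genes differed in their ratio to each other, a comparison made after the values were seen. H2-K1 stood at 0.578, 0.607, 0.578, 0.598 and 0.516 of H2-D1 by FPKM in Nar 1 to 5, and at 0.448, 0.453, 0.443, 0.467 and 0.434 in EAE 1 to 5. All 5 Nar ratios were above all 5 EAE ratios, Nar 4 included, and each group was narrow (0.576 ± 0.0354 against 0.449 ± 0.0121, SD, n = 5 each). The difference of mean log2 ratios was 0.36, at p = 0.0079 in a two-sided exact permutation test, and no smaller p exists for 5 samples in each group. Over the 45 pairs among the 10 genes the adjusted p was 0.0595, also the smallest reached, so that 0 of the 45 ratios passed 0.05. Without Nar 4 the difference of this ratio was slightly smaller, at 0.34, and its exact permutation p was again 0.0079. Its adjusted p was then 0.0397 and 9 of the 45 passed. As its own p was unchanged, its adjusted p moved through the p-values of the other ratios. The 2 groups did not overlap in 6 of the 45 ratios. These were H2-D1 to H2-K1, Tap2, Tapbp and Psmb10, and Psmb10 to Tap2 and Tapbp. For comparison, the FPKM ratio of other tested genes to H2-K1 failed to overlap between the groups in 1.97% of genes, and the ratio to H2-D1 in 19.6%. No such share was computed for ratios to Psmb10, Tap2 or Tapbp, so the ratios of Psmb10 to Tap2 and Tapbp stand without one.

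The ratio of H2-D1 to Psmb10 showed the widest of these gaps, at 2.63 to 5.03 in Nar and 5.88 to 15.4 in EAE, with a difference of mean log2 ratios, Nar minus EAE, of −1.26. Against Tap2 the ratio of H2-D1 was 23.8 to 37.0 in Nar and 41.5 to 76.3 in EAE, and against Tapbp it was 4.45 to 8.10 and 8.50 to 14.8. The ratio of Tapbp to Psmb10 was 0.530 to 0.646 in Nar and 0.691 to 1.04 in EAE. Nar 4 lay with its own group in each of these ratios by construction, since they were picked for groups that do not overlap. In the ratio of Psmb8 to Psmb10, which was not among them, Nar 4 (0.0819) lay above every EAE sample (0.055 to 0.0766).

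**Figure D3:**
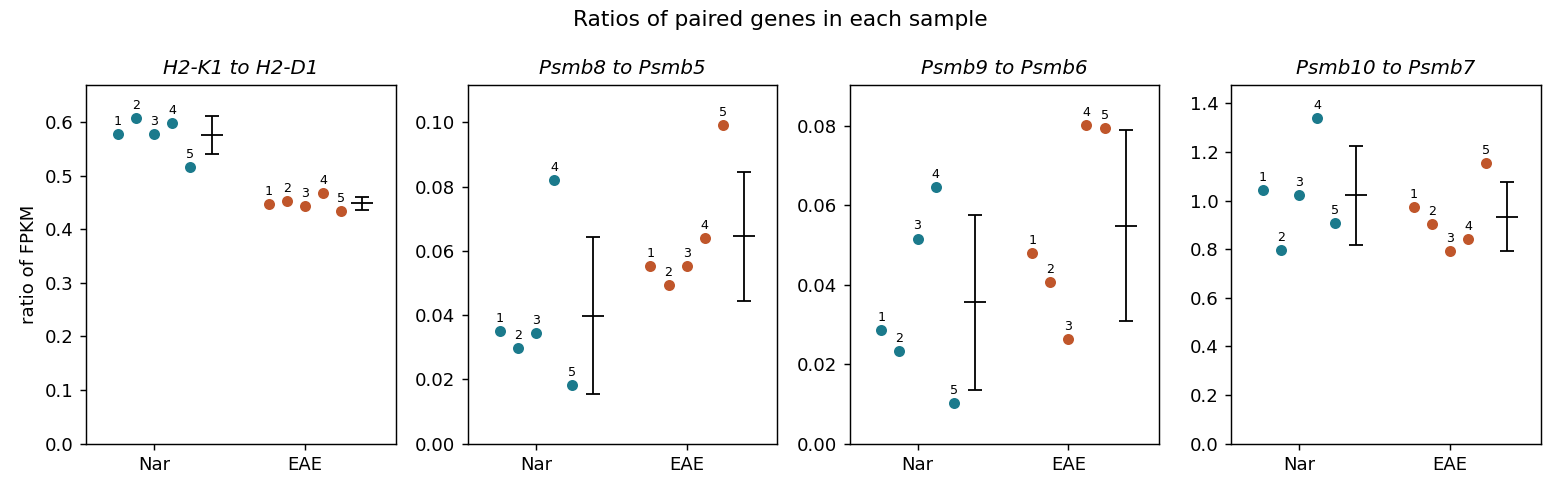
Ratio of the FPKM of 2 genes (vertical axes from 0) in each Nar and EAE sample: H2-K1 to H2-D1, and the 3 inducible proteasome genes to the constitutive gene each replaces. Points are samples with their replicate number, and bars are the mean and SD (n = 5). The ratio of H2-K1 to H2-D1 is 0.516 or more in Nar and 0.467 or less in EAE, while the groups overlap in the other 3 ratios.

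The rest of the pathway was read from 9 lists of 100 genes, of which 87 were tested. In Nar 0 rose and 4 fell by edgeR, against 3.93% of all tested genes called, and the median log2 fold change of the 87 was −0.02. Of the other class I genes of the H2 locus, 8 of 14 were tested, and 0 passed (median −0.13, all 8 negative). The largest difference in size was that of H2-M3, which presents formylated peptides, at 7.38 ± 2.39 CPM in Nar and 10.5 ± 1.31 in EAE (−0.51, edgeR adjusted p = 0.130, or −0.72 and 0.00405 without Nar 4). H2-T23, which codes for Qa-1, was at −0.18 (edgeR adjusted p = 0.797). H2-T22 was at −0.13 (0.594). Of the class I-like genes outside the locus 5 of 7 were tested and 0 passed. Mr1, which presents vitamin B metabolites, was at −0.46 (edgeR adjusted p = 0.0588). The iron regulator Hfe was at −0.45 (0.0835). Among 9 partners of peptide loading 0 passed. The trimming peptidase gene Erap1 was at −0.45 (edgeR adjusted p = 0.0894, or 0.0131 without Nar 4), P4hb at −0.19 (0.0993) and the tapasin-related Tapbpl at −0.33 (0.444).

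Of the proteasome genes outside the inducible 3, 1 passed the test, and most had positive fold changes. Over all tested genes 46.6% had a negative one. The constitutive catalytic genes Psmb5 (0.30, edgeR adjusted p = 0.265), Psmb6 (0.27, 0.214) and Psmb7 (0.04, 0.875) and all 11 other genes of the 20S core had positive fold changes (core median 0.13), with 0 passing. The 20S genes Psmb4 (0.22) and Psma7 (0.15) had the smallest p-values of the core. In Psmb4, Psmb5, Psmb6, Psmb7 and Psma7 only EAE 1, 4 and 5 lay below the Nar range. For Psmb6 these samples had 94.0, 67.9 and 82.0 CPM, against 109.7 to 121.3 in Nar. EAE 2 and EAE 3 had 109.8 and 117.8 CPM of Psmb6. With the mitochondrial share as a covariate the sign of Psmb5 (−0.087), Psmb6 (−0.071), Psmb7 (−0.27), Psmb4 (−0.057) and Psma7 (−0.084) turned negative. Among 18 genes of the 19S regulator, 1 fell, Psmd1, which codes for a scaffold subunit, at 115 ± 13.5 CPM in Nar and 144 ± 9.20 in EAE (−0.33, edgeR adjusted p = 0.0344). Psmd1 missed 0.05 without any single one of 6 samples, Nar 1, Nar 3, Nar 5, EAE 1, EAE 4 and EAE 5, with edgeR adjusted p-values of 0.0555 to 0.0908, and with the mitochondrial share as a covariate (0.265). The ubiquitin receptor subunit Psmd4 was at 0.17 (edgeR adjusted p = 0.267). Of the 9 activators and assembly factors 0 passed. The interferon-induced activator genes Psme1 and Psme2 were at −0.12 (edgeR adjusted p = 0.774) and 0.19 (0.559), and the assembly factors Psmg3 and Psmg4 at 0.63 (0.139) and 0.42 (0.191). Without Nar 4, Psme1 fell by 0.38 (edgeR adjusted p = 0.0288).

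Of 19 genes of interferon signalling and of the factors at class I promoters, 2 fell, Ifngr1 and Jak1. Both belong to the interferon-gamma receptor path, of which Ifngr2 (−0.19, edgeR adjusted p = 0.303) and Jak2 (0.0032, 0.983) did not pass. Ifngr1, the ligand-binding receptor chain, had 23.7, 25.1, 23.8, 33.1 and 21.9 CPM in Nar 1 to 5 and 40.8, 34.6, 36.4, 44.1 and 43.7 CPM in EAE 1 to 5. All 5 Nar samples were below all EAE samples, Nar 4 included, with a log2 fold change of −0.65 (SE 0.111, edgeR adjusted p = 0.00772). Its call held without any single sample. Jak1, a kinase bound to that receptor, fell by 0.30 (SE 0.067, edgeR adjusted p = 0.0264), from 209.5 ± 10.1 CPM in EAE to 170.1 ± 15.6 in Nar. Jak1 missed 0.05 when Nar 1, Nar 3, Nar 5, EAE 1 or EAE 4 was removed, with edgeR adjusted p-values of 0.0512 to 0.0768. The transcription factor genes Irf1, at −0.42 (edgeR adjusted p = 0.581), and Rfx5, at −0.11 (0.606), did not pass. Ciita, the class II counterpart of Nlrc5, was at −0.89 (edgeR adjusted p = 0.177). With the share of mitochondrial reads as a covariate neither Ifngr1 (0.111) nor Jak1 (0.188) passed.

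The list of receptors was sparse, with 5 of 10 genes tested. It holds class I receptors and related ones, among them Lilrb4a, an inhibitory receptor of myeloid cells that is not itself known to bind class I in the mouse. Lilrb4a fell by 3.02 on the log2 scale (SE 0.594, edgeR adjusted p = 0.0230), with 0.137 to 2.56 CPM in Nar and 3.55 to 12.1 in EAE, on 2 to 212 reads. Lilrb4a likewise missed 0.05 on removal of any one of the same 5 samples, with edgeR adjusted p-values of 0.0514 to 0.0701, and with the mitochondrial share as a covariate (0.209). Pirb, an inhibitory class I receptor, was at −1.49 (edgeR adjusted p = 0.0520). Cd8a, the coreceptor of the T cells that read class I, had 1 to 39 reads per sample and was at −1.48 (edgeR adjusted p = 0.0932).

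**Figure D4:**
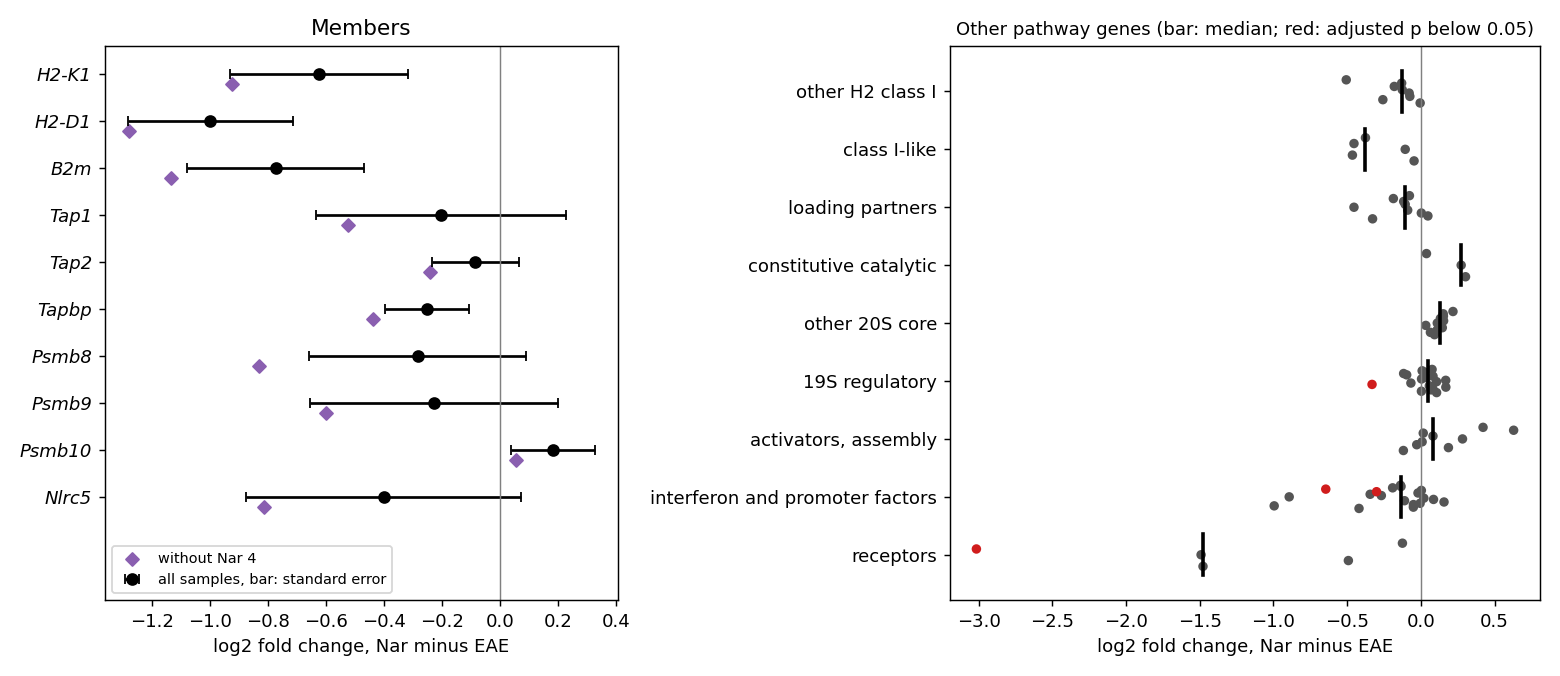
Log2 fold change, Nar minus EAE, for the 10 genes (left; circles with standard errors from all 10 samples, diamonds without Nar 4) and for the 87 tested genes of the 9 other pathway lists (right; each point is a gene, black bars are list medians, red points passed an edgeR adjusted p of 0.05). H2-D1, B2m and H2-K1 lie lowest among the 10, Psmb10 is above 0, and the 20S core lists lie above 0 with no gene passing.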

How the data were processed

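Poly-A selected RNA of spinal cord was sequenced in 10 libraries. The submitters' processing notes name cutadapt for read trimming and HISAT2 2.0.5 as aligner. For the counting tool, its use of strand and reads that match several genes, the sources used here state nothing. Per the file headers, the authors deposited raw read counts and FPKM per gene. The authors' FPKM equals count per kilobase of the deposited length and per M counted reads within 1% for 100% of 153986 values above 0.1. The coordinates of the 10 genes match GENCODE M21 (GRCm38).

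Counts were tested with edgeR 4.0.16 (R 4.3.3; filterByExpr, TMM, robust quasi-likelihood fit), with Benjamini-Hochberg adjustment over 14595 genes at 0.05. The fit was tested on simulated data. CPM use TMM-scaled totals. Ratios of FPKM were compared by a two-sided exact permutation test over samples, with adjustment over the 3 planned ratios or, for those added later, over 45. Alternatives were DESeq2 1.42.0, limma 3.58.1 (voom, or log2 of FPKM plus 1 or 0.1), other scalings, filters and thresholds, a covariate, the replicate block and leaving out each sample.

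The genes and lists were chosen with earlier results of these data known. Named were the 10 genes, the 2 of smallest p in each pathway list, 10 index genes (1 more is not reported here) and the 8 most alike in pattern. Same-numbered samples did not deviate together (correlation −0.227 to 0.161), so numbers were not taken as pairs.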

Additional observations from a re-analysis of the deposited data

Results flagged for a closer look

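In 28 searched sets of 5 samples (10 genes and 4 ratios in each group), 3 held a sample far from the other 4, where chance alone marks about 1 in 20. All 3 were Nar 4: Tapbp at 77.06 CPM, Psmb8 at 9.109 CPM and the ratio of Psmb8 to Psmb5 at 0.08195. The last 2 share the Psmb8 value. The summed general leukocyte markers of Nar 4, 423 CPM, lay in the EAE range, and their part in these values was not tested.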

How the results depend on the processing

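Over all genes, the 574 calls became 1314 with the DESeq2 Wald test, 197 with the mitochondrial share as covariate, 117 at a threshold of 0.01 and 1266 at 0.1, and ran from 161 to 1486 when 1 sample was left out. The fewest were without Nar 1 (161), Nar 5 (166), Nar 3 (205), EAE 1 (276), EAE 4 (311) and EAE 5 (325) and the most without EAE 3 (916) and Nar 4 (1486), a set that held 572 of the 574. Of the 10 genes, 1 was called with DESeq2, limma-voom, each FPKM setting and a threshold of 0.1, in each case H2-D1, and 0 to 5 when 1 sample was left out. The log2 ratio of Psmb8 to Psmb5 ran from −1.14 to −0.60 when 1 sample was left out. The replicate number as a block gave 636 calls over all genes and 0 of the 10, and it changed the call of Psmd1 (edgeR adjusted p 0.0508) and Pirb (0.0450) and of no other named gene. No Nar sample correlated best with the EAE sample of its own number. Of 210 values of the 10 genes under alternatives, 195 kept sign and side of the threshold, 10 newly passed and 5 turned sign.

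With the mitochondrial share as covariate the log2 fold change turned sign for Tap1 (0.49), Psmb9 (0.10), Psmb10 (−0.045), Nlrc5 (0.51), Psmb6 (−0.071), Psmb5 (−0.087), Psmb7 (−0.27), Psmb4 (−0.057), Psma7 (−0.084), Psmd4 (−0.060), Irf1 (0.22), Ciita (0.011), Rfx5 (0.19), Tapbpl (0.088), H2-T23 (0.27), Slfn1 (0.32), Ccr2 (0.54) and Gbp6 (0.069). When 1 sample was left out it ran from −0.52 to 0.077 for Tap1, −0.035 to 0.16 for Psmb7 and −0.0032 to 0.25 for Psme2. The cause was not tested. Among the 10 genes depth limits Psmb8 and Psmb9 most, with lowest counts of 26 and 33 reads. Cd8a (1), Lilrb4a (2), Slfn1 (2), Cd36 (3), Ccr2 (6), Pirb (13), Ciita (21), Psmg3 (22) and Gbp6 (22) had lower ones.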
